A study of Rattus norvegicus with 12 samples.

Results

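The T and NK cell genes described here are 10 genes, Slamf6, Cd3e, Cd3g, Cd3d, Cd4, Cd8a, Foxp3, Gzmb, Nkg7 and Ctla4. They were taken as the rows with these symbols in 2 tables of FPKM, a fragment count made relative to gene length and to library size. All 10 symbols were found once in each table, among 22132 entries of the control and adenine table and 32623 entries of the sham and UUO table. Kidney RNA came from 12 male SD rats labelled WT and 8 weeks old at purchase, with 3 rats in each of 4 groups. A daily gavage of adenine, at 220 mg/kg, was given to the adenine group over 3 weeks, and the control group had saline over the same time. Rats of the UUO (unilateral ureteral obstruction) group had the left ureter tied off, rats of the sham group had the same surgery without the tie, and both were kept for 2 weeks. The methods do not state which kidney of a UUO rat was taken. No group carries a transgene, and both treatments served as models of renal fibrosis (RF).

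T cells recognise antigen through a receptor that signals by way of the CD3 chains, with CD4 or CD8 as coreceptor on helper and cytotoxic cells. NK cells and cytotoxic T cells kill target cells with granules of perforin and granzymes, and regulatory T cells, which hold other T cells back, are marked by the transcription factor FOXP3 and carry the inhibitory receptor CTLA4. In injured kidney both kinds of lymphocyte are known to gather in the interstitium beside macrophages. In the rat, CD4 is also found on monocytes and macrophages, so Cd4 alone does not mark T cells there.

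The promoter windows of Slamf6 and of the CD3 genes are shown because Slamf6 changed most in the adenine group and the CD3 genes are neighbours in the rat genome. Each window is the RefSeq sequence of GRCr8 from 250 bases before to 50 bases after the annotated start, written 5′ to 3′ on the strand of the gene, and windows were listed for 9 of the 10 genes. Capitals mark 5 short letter motifs searched on both strands. Letters of the ETS type were searched as GGAAGT. Letters known from sites of GATA factors were searched as TGATAA. Letters of the RUNX type were searched as TGTGGT. The E-box was searched in the form CAGCTG. The box that places the start of transcription was searched as TATAAA. Matches overlapped in 0 pairs. The motifs were chosen after the values had been seen. The Slamf6 window lies at chr13:86916706-86917005 on the plus strand, the Cd3e window at chr8:54211721-54212020 on the minus strand, the Cd3g window at chr8:54183869-54184168 on the minus strand and the Cd3d window at chr8:54185269-54185568 on the plus strand.
Slamf6: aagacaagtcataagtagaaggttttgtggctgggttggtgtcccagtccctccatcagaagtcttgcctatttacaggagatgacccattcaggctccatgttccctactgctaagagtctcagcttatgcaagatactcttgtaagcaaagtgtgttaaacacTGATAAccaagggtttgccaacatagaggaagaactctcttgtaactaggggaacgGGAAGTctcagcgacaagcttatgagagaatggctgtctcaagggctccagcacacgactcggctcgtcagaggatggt
Cd3e: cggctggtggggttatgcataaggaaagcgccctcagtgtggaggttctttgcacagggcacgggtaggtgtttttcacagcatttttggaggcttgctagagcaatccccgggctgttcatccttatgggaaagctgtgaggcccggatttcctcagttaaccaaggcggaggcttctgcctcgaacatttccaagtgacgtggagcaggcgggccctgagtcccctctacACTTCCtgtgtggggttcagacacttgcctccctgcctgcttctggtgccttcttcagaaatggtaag
Cd3g: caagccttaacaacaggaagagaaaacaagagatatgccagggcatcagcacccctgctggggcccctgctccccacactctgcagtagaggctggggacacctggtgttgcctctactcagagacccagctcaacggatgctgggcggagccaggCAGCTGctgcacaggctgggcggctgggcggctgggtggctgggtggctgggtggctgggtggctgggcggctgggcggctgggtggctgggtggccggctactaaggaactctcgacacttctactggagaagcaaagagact
Cd3d: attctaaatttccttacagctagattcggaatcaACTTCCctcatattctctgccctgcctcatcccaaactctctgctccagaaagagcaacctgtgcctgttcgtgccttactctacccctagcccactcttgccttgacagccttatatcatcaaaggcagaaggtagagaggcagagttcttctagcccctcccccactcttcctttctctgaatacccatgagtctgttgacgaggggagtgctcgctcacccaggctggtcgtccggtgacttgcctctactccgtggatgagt

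Cd3g and Cd3d are read away from each other, with 1601 bases between their starts, and the start of Cd3e lies 26.3 kb beyond that of Cd3d. The ETS-type letters occurred in the windows of Slamf6, Cd3e and Cd3d, and in 22.6% of all 33469 windows. The GATA-type letters occurred in those of Slamf6, Cd8a and Foxp3 (9.03% of all windows), and the E-box letters in those of Cd3g and Ctla4 (15.1%). The windows of Gzmb and Nkg7 held the RUNX-type letters (17.3% of all windows), and those of Foxp3, Gzmb and Ctla4 held TATAAA (14.2%). A match describes the letters of a window and shows no binding.

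The 2 tables were fitted apart with limma on log2(FPKM + 0.1). DEGs were entries whose p, after Benjamini-Hochberg adjustment across the table, was under 0.05 and whose absolute log2 fold change (FC) was 2 or more. To be tested, an entry needed 0.5 FPKM or more in 3 or more of its 6 samples. Log2 FC values below are on this scale, which understates the change of genes with low FPKM, and are given with their standard error (SE). Depth is unknown, since the tables hold no read counts. The median log2 FC of all tested entries was 0.30 under adenine and 0.62 under UUO. An exact two-sided permutation test of 3 rats against 3 cannot give a p below 0.1, and it gave that value for every gene whose groups do not overlap.

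Most of the T and NK cell genes rose in both models, with Nkg7 not past the test and Gzmb not tested in the adenine model, and the sizes of the rises differed between the models. In the adenine model 6 of the 9 tested members were upregulated DEGs, against 10.7% of all tested entries, and in the UUO model 9 of 10 were, against 13.2%. Without the fold limit, 8 of 9 members and 39.6% of entries passed as higher under adenine, and 10 of 10 members and 56.1% of entries under UUO. The 3 adenine rats lay above all 3 control rats for 8 of the 9 tested members, as for 45% of entries, and the 3 UUO rats above all 3 sham rats for 10 of 10, as for 60%. The median log2 FC of the tested members was 2.23 under adenine and 3.27 under UUO. In each model 3 of the tested members had no control or sham rat at the minimum FPKM and passed through the diseased rats alone, so these counts support nothing beyond the members' own values. With a pseudocount of 1 in place of 0.1, only 2 members stayed DEGs under adenine and 6 under UUO. Calls lost there were those of Cd3e (1.55), Cd3g (1.73), Foxp3 (1.35) and Ctla4 (1.13) under adenine and Slamf6 (1.44), Gzmb (1.47) and Ctla4 (0.81) under UUO. These are bulk kidney samples, in which more cells of a type and more RNA per cell cannot be told apart.

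**Figure D1:**
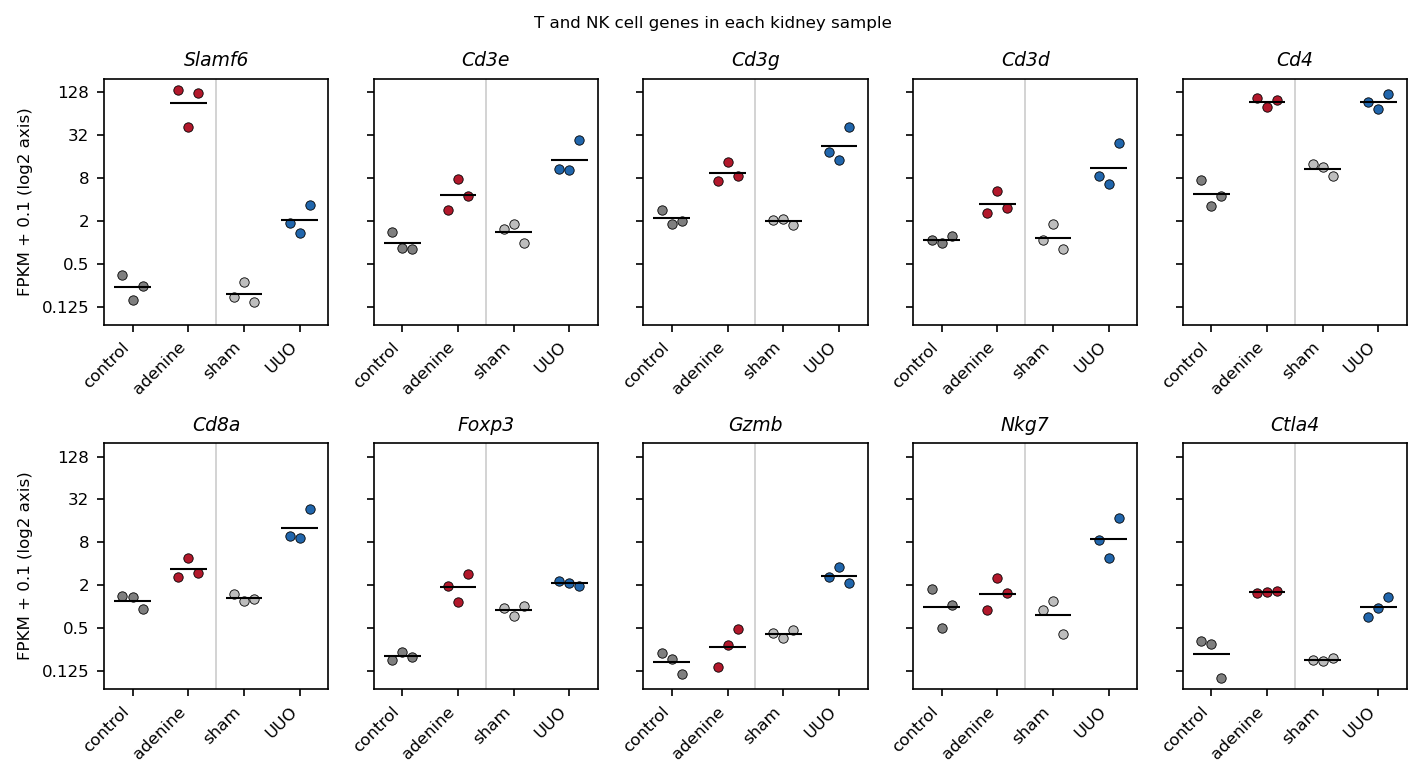
FPKM + 0.1 on a log2 axis for each member in the 3 rats of each group, one point a rat, with the mean of the log2 values as a line. Slamf6 stands between 41.9 and 138 FPKM in adenine rats and between 1.24 and 3.22 in UUO rats, while Cd8a, Nkg7 and the CD3 genes stand highest in UUO rats.

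Cd3e, Cd3g and Cd3d encode the signalling chains of the T cell receptor complex. FPKM of Cd3e was 1.31, 0.733 and 0.700 in the control rats and 2.74, 7.50 and 4.39 in the adenine rats. It was 1.45, 1.72 and 0.874 in the sham rats and 10.7, 10.2 and 26.9 in the UUO rats. Every diseased rat lay above every rat of its own reference group, and the second adenine rat and the third UUO rat stood highest. The log2 FC of Cd3e was 2.23 (SE 0.41, limma adjusted p = 0.00351) under adenine and 3.37 (SE 0.42, limma adjusted p = 0.000466) under UUO.

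FPKM of Cd3g was 2.71, 1.70 and 1.91 in the control rats and 7.02, 13.1 and 8.45 in the adenine rats. In the sham rats it was 1.96, 2.05 and 1.63, and in the UUO rats 18.5, 14.1 and 41.5. The groups did not overlap, and the same rats stood highest as for Cd3e. Cd3g had a log2 FC of 2.10 (SE 0.28, limma adjusted p = 0.000913) under adenine and of 3.50 (SE 0.38, limma adjusted p = 0.000249) under UUO.

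Cd3d stood at 0.976, 0.885 and 1.12 FPKM in the control rats and at 2.49, 5.06 and 2.96 in the adenine rats. It stood at 0.978, 1.67 and 0.710 in the sham rats and at 8.50, 6.36 and 24.6 in the UUO rats. The order of the adenine rats and of the UUO rats followed Cd3g. The log2 FC was 1.66 (SE 0.29, limma adjusted p = 0.00288) in the adenine model, past the p threshold and under the fold limit, and 3.26 (SE 0.54, limma adjusted p = 0.00154) in the UUO model. In the adenine model the DEG calls of Cd3e and Cd3g stood close to the fold limit. Without the second adenine rat their log2 FC was 1.87 and 1.85, under median-of-ratios scaling 1.95 and 1.81, and under quantile normalization 1.72 and 1.68, with adjusted p under 0.05 in each fit. Without the second control rat that of Cd3g was 1.97.

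Cd4 encodes the coreceptor of helper T cells. Its FPKM was 7.36, 3.08 and 4.35 in the control rats and 104, 79.7 and 98.1 in the adenine rats. FPKM was 12.6, 11.4 and 8.43 in the sham rats and 92.3, 72.8 and 121 in the UUO rats. In both models the level reached near 100 FPKM, with no overlap of the groups. Cd4 rose 19.1-fold in mean FPKM under adenine (log2 FC 4.31, SE 0.30, limma adjusted p = 7.85e-05) and 8.81-fold under UUO (log2 FC 3.12, SE 0.22, limma adjusted p = 4.92e-05).

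Cd8a encodes a chain of the coreceptor of cytotoxic T cells. In the control rats its FPKM was 1.30, 1.27 and 0.816, and in the adenine rats it was 2.52, 4.80 and 2.92. In the sham rats it was 1.42, 1.09 and 1.19, and in the UUO rats 9.75, 9.07 and 23.7. All diseased rats stood above their reference groups, the UUO rats by a wider gap. Cd8a passed the p threshold and not the fold limit under adenine (log2 FC 1.49, SE 0.31, limma adjusted p = 0.0057), and was a DEG under UUO (log2 FC 3.29, SE 0.37, limma adjusted p = 0.000292). Cd8b, the other chain, was named after its values were seen. It stood at 0.299, 0.293 and 0.161 FPKM in the control rats, 2.69, 2.63 and 3.23 in the adenine rats, 0.447, 0.0669 and 0.231 in the sham rats and 2.85, 3.12 and 7.42 in the UUO rats. Its log2 FC was 3.09 (SE 0.26) and 3.74 (SE 0.54), and unlike Cd8a it was a DEG in both models, with a difference of 0.64 (SE 0.61) that was not called. All control and sham rats were under the minimum FPKM for Cd8b, so it passed the filter through the diseased rats alone. With a pseudocount of 1 its log2 FC under adenine was 1.62, under the fold limit.

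Slamf6 encodes a receptor of the SLAM family, which binds itself on neighbouring lymphocytes and signals through the adaptors of the Sh2d1 family. FPKM was 0.248, 0.0546 and 0.140 in the control rats and 138, 41.9 and 122 in the adenine rats. In the sham rats it was 0.0697, 0.178 and 0.0461, and in the UUO rats 1.77, 1.24 and 3.22. Slamf6 was thus the second lowest member by mean FPKM in the sham group and stood beside Cd4 at the top in the adenine group, where the second rat was the lowest. The log2 FC was 8.57 (SE 0.51, limma adjusted p = 5.10e-05) under adenine and 3.41 (SE 0.44, limma adjusted p = 0.000537) under UUO. By the ratio of mean FPKM these were rises of 681-fold and 21.2-fold over reference levels that were all under 0.5 FPKM, so the entry passed the filter through the diseased rats alone.

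Foxp3 encodes the transcription factor of regulatory T cells. FPKM was 0.0807, 0.129 and 0.0980 in the control rats and 1.86, 1.08 and 2.76 in the adenine rats. FPKM was 0.863, 0.643 and 0.930 in the sham rats and 2.17, 2.03 and 1.88 in the UUO rats. The diseased rats reached like levels of 1.90 ± 0.841 (SD, n = 3) and 2.03 ± 0.144, and the reference levels were 0.102 ± 0.0244 in the control group and 0.812 ± 0.150 in the sham group, in tables that were normalized apart. Foxp3 had a log2 FC of 3.22 (SE 0.38, limma adjusted p = 0.000549) in the adenine model, where it passed the filter through the adenine rats alone, and of 1.24 (SE 0.22, limma adjusted p = 0.00227) in the UUO model, under the fold limit. In RefSeq the gene overlaps Ccdc22 and Ppp1r3f, and it is not stated whether the counting used the strand, so its reads are uncertain.

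Ctla4 encodes an inhibitory receptor that competes with CD28 for its ligands. It was listed at 0.231, 0.203 and 0 FPKM in the control rats and at 1.46, 1.49 and 1.54 in the adenine rats. It was listed at 0.0808, 0.0708 and 0.0909 in the sham rats and at 0.623, 0.861 and 1.25 in the UUO rats. The groups did not overlap in either model, and all reference rats were under the minimum FPKM. The log2 FC was 2.89 (SE 0.49, limma adjusted p = 0.0026) under adenine and 2.44 (SE 0.35, limma adjusted p = 0.00088) under UUO.

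Gzmb encodes granzyme B, a serine protease of cytotoxic granules. FPKM was 0.126, 0.0840 and 0.0144 in the control rats and 0.0421, 0.191 and 0.385 in the adenine rats. These values overlapped (exact permutation p = 0.4) and all stayed under 0.5, so Gzmb was not tested in the adenine model. FPKM was 0.326, 0.265 and 0.368 in the sham rats and 2.51, 3.54 and 2.04 in the UUO rats, which did not overlap, and the log2 FC was 2.71 (SE 0.28, limma adjusted p = 0.000196). Granzyme genes and pseudogenes of near sequence lie around Gzmb in RefSeq, and how the authors' counting split reads among them is not stated.

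Nkg7 encodes a membrane protein of cytotoxic granules in NK cells and T cells. FPKM was 1.66, 0.404 and 0.955 in the control rats and 0.789, 2.40 and 1.44 in the adenine rats. The 2 groups overlapped, and the log2 FC of 0.63 (SE 0.56, 95% interval -0.70 to 1.96) did not pass the test (limma adjusted p = 0.364). FPKM was 0.804, 1.09 and 0.308 in the sham rats and 8.58, 4.66 and 17.5 in the UUO rats, all of which lay above the sham rats. Here the log2 FC was 3.56 (SE 0.57, limma adjusted p = 0.00137).

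**Figure D2:**
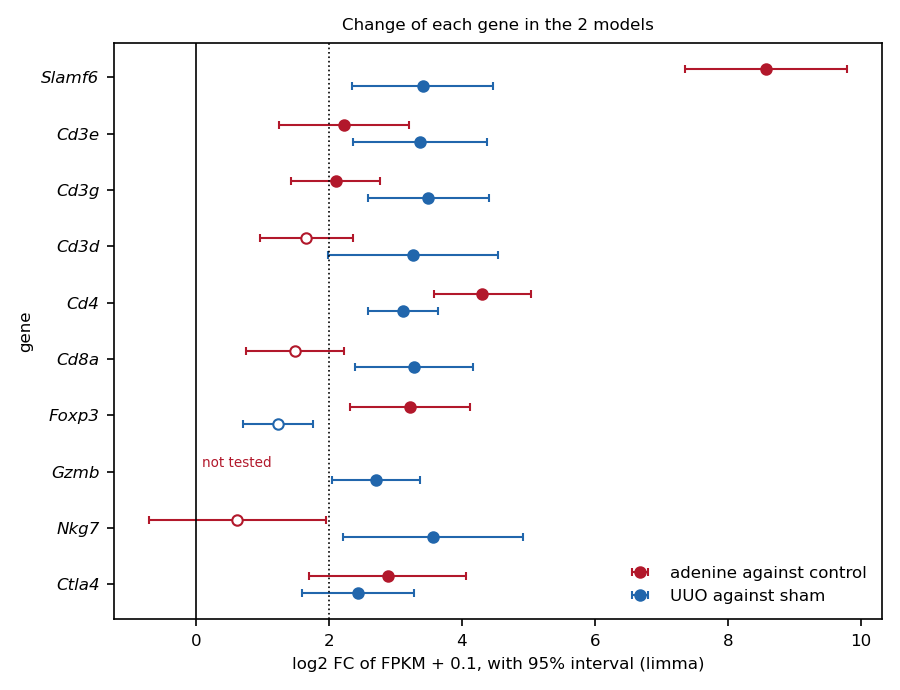
Log2 FC of FPKM + 0.1 with its 95% interval (horizontal axis) for each member, adenine against control and UUO against sham. Filled points are DEGs, the dotted line is the fold limit of 2, and Gzmb was not tested in the adenine model. Slamf6 at 8.57 in the adenine model stands apart from 3.41 in the UUO model, and Nkg7 goes the other way, with 0.63 and 3.56.

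Per length, Cd4 was the highest member in the control, sham and UUO groups, at 4.93 ± 2.20, 10.8 ± 2.15 and 95.3 ± 24.2 FPKM (SD, n = 3), and its range in each was clear of that of the next member, Cd3g. In the adenine group Slamf6, at 101 ± 51.5 FPKM, and Cd4, at 94.1 ± 12.8, overlapped and were clear of Cd3g at 9.53 ± 3.18. From Cd3g down, neighbouring members of the adenine group overlapped through Cd3e, Cd3d, Cd8a, Foxp3, Nkg7 and Ctla4, and Gzmb at 0.206 ± 0.172 was clear below. In the UUO group Cd3g, Cd3e, Cd8a, Cd3d and Nkg7, in falling order from 24.7 ± 14.7 to 10.2 ± 6.56, overlapped their neighbours. Gzmb at 2.70 ± 0.766, Slamf6 at 2.08 ± 1.03 and Foxp3 followed with overlapping ranges, and Ctla4 at 0.912 ± 0.317 was lowest.

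The rise of the members was then set side by side between the models, which have separate tables and no shared rats. The log2 FC in the UUO model less that in the adenine model was called where its adjusted p was under 0.05 and its size at least 1. A larger rise in the UUO model was called for 3 of the 9 members tested in both, Nkg7, Cd8a and Cd3g, against 9.44% of all 13486 symbols compared. A larger rise in the adenine model was called for 3 members, Slamf6, Foxp3 and Cd4, against 3.37% of symbols. Slamf6 and Foxp3 passed the filter of the adenine table through the adenine rats alone, so the count of 3 supports nothing beyond their own values. Nkg7 differed by 2.94 (SE 0.80, adjusted p = 0.0165 on the limma fits) and Cd8a by 1.80 (SE 0.48, adjusted p = 0.0157 on the limma fits). Slamf6 differed by -5.16 (SE 0.68, adjusted p = 0.000352 on the limma fits), and Foxp3 by -1.98 (SE 0.44, adjusted p = 0.00611 on the limma fits).

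The calls for Cd4, at -1.19 (SE 0.38, adjusted p = 0.0322 on the limma fits), and Cd3g, at 1.40 (SE 0.47, adjusted p = 0.0437 on the limma fits), were lost in 8 and 15 of 21 alternative fits, with sizes between -1.52 and -0.91 and between 0.94 and 1.72. The differences of Cd3e (1.14, 95% interval -0.13 to 2.40), Cd3d (1.60, 0.29 to 2.91) and Ctla4 (-0.45, -1.76 to 0.86) did not pass the test. The intervals of Cd3e and Cd3d lay mostly or wholly above 0, and that of Ctla4 spanned 0. Cd8a and Slamf6 were called in all 21 alternatives. Nkg7 lost its call under the replicate block (adjusted p = 0.0509 on the limma fits), and Foxp3 under a pseudocount of 1, with a difference of -0.61.

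Each remaining member was set against the CD3 chains of the same rat. Log2 changes and overlap were taken on log2(FPKM + 0.1) less the mean of the log2(FPKM + 0.1) of Cd3e, Cd3g and Cd3d. Ratios printed for single rats are plain FPKM over the mean FPKM of the 3 chains, so the log2 changes do not follow from them directly. In the adenine model Slamf6 and Cd4 lay higher and Cd8a and Nkg7 lower against the CD3 chains with no overlap of the groups, while in the UUO model Foxp3 was the 1 member whose groups did not overlap. The ratio of Slamf6 FPKM to the CD3 chains was 0.149, 0.0493 and 0.113 in the control rats and 33.8, 4.89 and 23.2 in the adenine rats. On the log2 scale with the pseudocount of 0.1 the change was 6.57 (95% interval 4.11 to 9.03). In the sham rats the ratio was 0.0477, 0.0980 and 0.0431, and in the UUO rats 0.141, 0.121 and 0.104, a log2 change of 0.036 (95% interval -0.47 to 0.54) once the pseudocount of 0.1 was added. Without the pseudocount the UUO ratios all lay above the sham ratios, and with it they overlapped, since sham FPKM of Slamf6 were near 0.1. Slamf6 lay above the CD3 chains in all 3 adenine rats and below them in all other rats.

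The ratio of Cd4 to the CD3 chains was 4.42, 2.78 and 3.50 in the control rats and 25.6, 9.32 and 18.6 in the adenine rats (log2 change 2.31, 95% interval 0.96 to 3.66). It was 8.61, 6.31 and 7.88 in the sham rats and 7.34, 7.12 and 3.90 in the UUO rats (-0.26, 95% interval -1.20 to 0.68). Cd4 left the CD3 chains under adenine, and its values overlapped under UUO. The ratio of Cd8a was 0.780, 1.14 and 0.656 in the control rats and 0.616, 0.561 and 0.553 in the adenine rats, lower without overlap though its interval took in 0 (-0.51, 95% interval -1.12 to 0.099). For Nkg7 it was 0.996, 0.365 and 0.768 in the control rats and 0.193, 0.281 and 0.274 in the adenine rats (-1.37, 95% interval -2.50 to -0.24). Foxp3 went from 0.590, 0.354 and 0.869 in the sham rats to 0.173, 0.199 and 0.0608 in the UUO rats (-2.14, 95% interval -3.96 to -0.32).

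Of the 6 tested members set against the CD3 chains in the adenine model, 2 lay higher without overlap, against 4.04% of all tested entries, and 2 lower, against 75.5%. Of the 7 in the UUO model, 0 lay higher, against 0.432% of entries, and 1 lower, against 86.6%. These shares support nothing about the members, of which Slamf6, Gzmb and Ctla4 passed the filter through the UUO rats alone. Exact permutation p values of these ratios cannot fall below 0.1. Without the second sham rat, 4 members in place of 1 had UUO and sham groups that did not overlap against the CD3 chains, and 8 in place of 1 against Ptprc. Without the pseudocount the ratios of Foxp3 also did not overlap in the adenine model, at 0.0485, 0.116 and 0.0788 in the control rats and 0.456, 0.126 and 0.524 in the adenine rats. With it Foxp3 and Ctla4 overlapped in the adenine model, at 1.22 (95% interval -0.68 to 3.12) and 0.89 (-0.82 to 2.60), as did the untested Gzmb at -1.30 (-2.78 to 0.17). In the UUO model Cd8a (-0.089, 95% interval -0.87 to 0.70), Nkg7 (0.19, -0.63 to 1.01), Gzmb (-0.67, -2.82 to 1.49) and Ctla4 (-0.94, -2.12 to 0.25) overlapped.

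**Figure D3:**
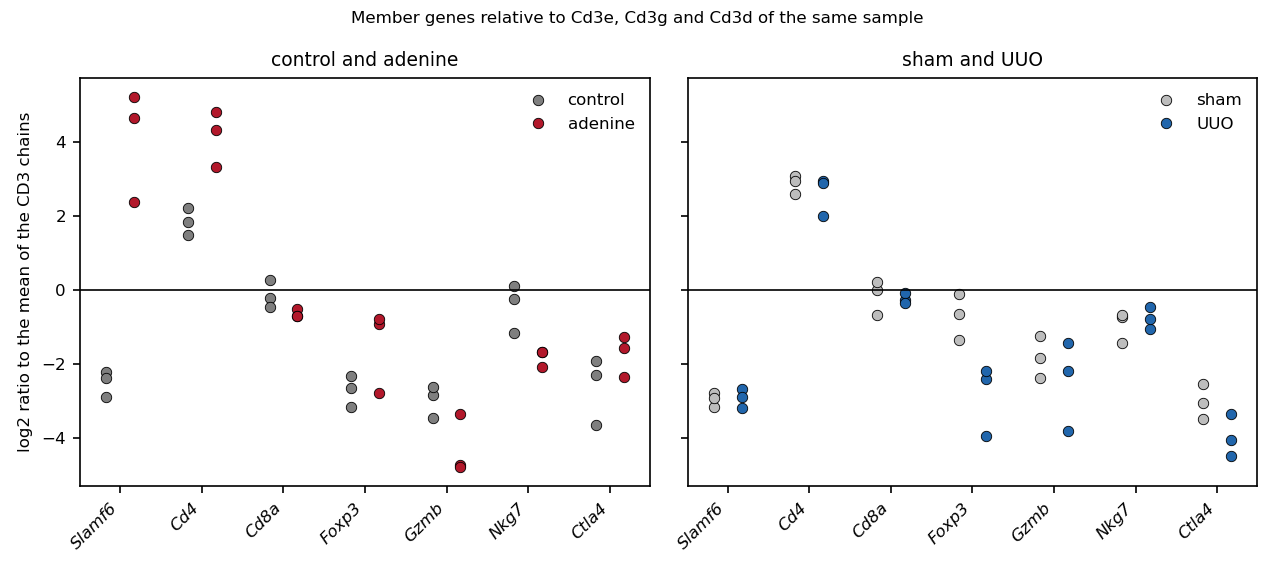
Log2 ratio of each other member to the mean of Cd3e, Cd3g and Cd3d in the same rat (vertical axis, FPKM + 0.1), control and adenine at left and sham and UUO at right, one point a rat. Slamf6 moves from below the CD3 chains in the 3 control rats to above them in the 3 adenine rats, and on this scale sham and UUO rats overlap for every member but Foxp3.

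Against Ptprc, which encodes CD45 and is expressed by nearly all leukocytes, Slamf6 (log2 change 5.23, 95% interval 4.10 to 6.37) and Cd4 (0.97, -0.0089 to 1.95) were higher in the adenine rats without overlap, as were 1.64% of entries. Cd3d (-1.67, 95% interval -3.31 to -0.031), Cd8a (-1.85, -3.42 to -0.27) and Nkg7 (-2.71, -4.97 to -0.45) were lower, as were 90.6% of entries, and Cd3e, Cd3g, Foxp3 and Ctla4 overlapped. In the UUO model 0 of 10 members were higher relative to Ptprc, against 1.35% of entries, and Foxp3 (-1.49, 95% interval -2.54 to -0.44) was the 1 member lower, against 81.4%. Ptprc itself stood at 3.15, 2.70 and 2.55 FPKM in the control rats and 32.2, 19.6 and 38.8 in the adenine rats, and at 2.24, 1.24 and 2.30 in the sham rats and 12.5, 8.91 and 19.1 in the UUO rats. The log2 change of Ptprc was 3.34 (SE 0.26) under adenine and 2.73 (SE 0.34) under UUO, and the groups did not overlap in either.

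Most tested markers of other leukocytes rose in both models as well. Their differences between the models and their order among the rats were not always those of the members. All 11 macrophage and monocyte markers were upregulated DEGs in both models, against 10.7% of all tested entries under adenine and 13.2% under UUO. Counts of upregulated DEGs in the other marker lists stand against the same shares. None of these counts supports anything beyond the genes' own values. The summed FPKM of the macrophage markers went from between 209 and 267 in the control group to between 7246 and 13734 in the adenine group. In the sham and UUO groups the sums were 235 to 358 and 1956 to 2910, with no marker at the lowest listed value in all 3 rats of a group. Cd68, a lysosomal protein of macrophages, had a log2 FC of 6.20 (SE 0.25) under adenine and 3.71 (SE 0.23) under UUO, and Lyz2 (lysozyme) of 5.65 (SE 0.30) and 2.76 (SE 0.25). C1qa, a complement subunit made by macrophages, had 4.39 (SE 0.23) and 3.87 (SE 0.25). A larger rise in the adenine model, the direction of Slamf6, Cd4 and Foxp3, was called for 6 of the 11 markers, against 3.37% of all symbols compared. The difference was -2.49 for Cd68 and -2.90 for Lyz2. The other 5 were not called, among them C1qa at -0.53 and Adgre1, named after its values were seen, at 0.52. The part of macrophages in the Slamf6 and Cd4 results was not tested.

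Of the 6 pan-leukocyte markers, 6 were upregulated DEGs in both models, with sums of 38.0 to 45.8 FPKM in the control group, 691 to 1279 in the adenine group, 44.4 to 49.6 in the sham group and 299.6 to 409 in the UUO group. Itgb2, the integrin chain shared by leukocyte adhesion receptors, rose by 5.88 (SE 0.35) and 2.08 (SE 0.18) on the log2 scale, Laptm5 by 4.05 (SE 0.16) and 3.07 (SE 0.20), and Lcp1 by 4.55 (SE 0.22) and 2.98 (SE 0.13). B cell markers summed to 2.25 to 5.07 FPKM in the control group, 20.2 to 48.4 in the adenine group, 2.10 to 5.13 in the sham group and 24.7 to 75.8 in the UUO group, with 1 of 3 tested markers a DEG under adenine and 5 of 5 under UUO. Jchain, the joining chain of antibodies, was the DEG in both, at 3.49 (SE 0.46) and 3.72 (SE 0.52). Cd22 had 1.92 and 2.84, and Cd79b, tested in the UUO model only, 2.51. Pax5 was at the lowest value in all sham rats.

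Dendritic cell markers were DEGs in 4 of 5 tested under adenine and 6 of 6 under UUO, with sums of 7.03 to 9.12 FPKM in control, 131 to 155 in adenine, 7.87 to 8.79 in sham and 81.0 to 117 in UUO rats, and Siglech was at the lowest value in all control and all sham rats. Itgax, Clec10a and Batf3 had log2 FC of 4.71, 4.08 and 3.18 under adenine and of 2.48, 4.15 and 3.38 under UUO. A larger rise was called for Itgax in the adenine model. In the UUO model it was called for Clec9a (1.08 and 2.92), which was named once its values had been seen. Neutrophil markers were DEGs in 3 of 3 and 4 of 4 tested, with sums of 1.28 to 2.54, 14.3 to 26.7, 0.466 to 1.61 and 7.18 to 38.1 FPKM in the same order of groups. S100a8, S100a9 and Csf3r had log2 FC of 4.76, 3.51 and 2.94, and of 3.53, 4.29 and 2.87. Mpo was at the lowest value in all sham rats. Of the mast cell markers Kit alone was tested in the adenine model, with a log2 FC of 1.12, and of the 2 tested in the UUO model Kit had 1.12 and 1 was a DEG. Tpsab1 and Tpsb2 were at the lowest value in all control and sham rats. Mast cell sums were 3.13 to 6.68, 10.02 to 13.0, 7.18 to 7.83 and 16.1 to 21.7 FPKM. All 8 kidney epithelium markers had a log2 FC under 0 in both models, though 3 under adenine and 1 under UUO did not pass the p threshold. Downregulated DEGs were 3 of 8 under adenine, against 756 of 15029 tested entries, and 6 of 8 under UUO, against 633 of 15043. Sums of the kidney epithelium markers were 2111 to 3175, 249 to 458, 3264 to 3952 and 237 to 373 FPKM. Slc34a1, Umod and Slc12a1, which mark the proximal tubule and the thick limb, had log2 FC of -4.31, -3.43 and -1.65 under adenine and of -3.86, -4.47 and -2.13 under UUO. The part of these cells in the results of the members was not tested.

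Other genes of the same pathways were counted from 10 lists of 136 genes, which share no gene with the members. In the adenine model 78 of these were tested. Of them 39 were upregulated DEGs, against 10.7% of all tested entries, 1 was a downregulated DEG and 14 did not pass the p threshold. In the UUO model 97 were tested. Of them 75 were upregulated DEGs, against 13.2% of all tested entries, 0 were downregulated DEGs and 9 did not pass. Under median-of-ratios scaling there were 30 upregulated and 1 downregulated under adenine and 55 and 1 under UUO. A larger rise was called in the UUO model for 20 of the 75 genes tested in both, against 9.44% of all symbols compared. In the adenine model it was called for 4, against 3.37% of symbols. Of the tested genes, 20 under adenine and 35 under UUO had no control or sham rat at the minimum FPKM, so the shares of those tested cannot be read as the shares of the lists. Counts of single lists below stand against the same shares of all entries. Neither they nor the totals support anything beyond the genes' own values.

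Genes of T cell receptor signalling gave 5 upregulated and 1 downregulated DEG of 17 tested under adenine (median log2 FC 1.53) and 14 upregulated of 17 under UUO (median 2.90). Lck, the kinase that starts the signal, had a log2 FC of 2.08 (SE 0.24) and 3.14 (SE 0.39). Lcp2, an adaptor that myeloid cells carry as well, had 4.43 and 3.19. Thy1, found on rat thymocytes but also on fibroblasts and mesangial cells, had 1.12 and 1.81. Cd247, the zeta chain of the receptor, named after its values were seen, stood at 0.697, 0.377 and 0.683 FPKM in the control rats, 1.34, 2.41 and 2.29 in the adenine rats, 0.319, 0.359 and 0.232 in the sham rats and 5.91, 4.08 and 11.8 in the UUO rats. Its rise was larger in the UUO model by 2.45 (SE 0.52, adjusted p = 0.00486 on the limma fits). Lat, an adaptor also named after its values were seen, had 0.35 (adjusted p = 0.103) and 2.51 (adjusted p = 0.00181, both limma).

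Sit1, a transmembrane adaptor of lymphocytes, went the other way. FPKM was 4.49, 7.05 and 8.33 in the control rats and 0.539, 1.39 and 0.386 in the adenine rats, and 10.6, 4.47 and 5.17 in the sham rats and 1.43, 1.65 and 4.66 in the UUO rats. The adenine rats lay below all control rats, while the third UUO rat lay between the lower sham rats. The log2 FC was -3.08 (SE 0.45, limma adjusted p = 0.00137) under adenine and -1.44 (SE 0.51, limma adjusted p = 0.0387) under UUO.

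Costimulatory receptors gave 5 of 7 and 6 of 8 tested genes as upregulated DEGs, with medians of 2.23 and 2.77. Icos, a receptor of activated T cells, had 3.08 and 1.99, Tnfrsf4 (OX40) 2.35 and 3.59, and Tnfrsf9 (4-1BB) 3.00 and 2.31. Inhibitory receptors gave 3 of 3 and 5 of 5, against 10.7% and 13.2% of all tested entries. Another 5 of the 8 listed genes under adenine and 3 under UUO were too low to test. Of those tested, 2 under adenine and 5 under UUO passed the filter through the diseased rats alone. The counts of this list therefore support nothing beyond the genes' own values. Cd200r1, which myeloid cells also carry, had 3.04 and 2.26, Tigit 3.06 and 3.33, and Lag3, tested in the UUO model only, 2.54. Of the ligands of CTLA4, CD28 and PD-1, 3 of 3 and 2 of 3 were DEGs. Cd86, which binds CTLA4 and CD28, had 2.50 and 1.64, Cd80 3.18 and 2.08, and Cd274 (PD-L1) 3.08 and 2.39. Under median-of-ratios scaling 0 of these 3 ligands were DEGs in the UUO model.

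The SLAM family and its adaptors were DEGs in 6 of 6 tested genes under adenine (median 3.93) and in 9 of 9 under UUO (median 3.22). Cd84, which lies next to Slamf6 in RefSeq, stood at 0.768, 0.825 and 0.346 FPKM in the control rats and at 59.0, 36.3 and 54.2 in the adenine rats, a log2 FC of 6.10 (SE 0.33). It stood at 0.786, 0.645 and 0.277 in the sham rats and at 7.07, 6.31 and 7.10 in the UUO rats, a log2 FC of 3.46 (SE 0.33). As for Slamf6, the rise was larger in the adenine model, with a Cd84 difference of -2.65 (SE 0.47, adjusted p = 0.00185 on the limma fits). Cd48, a ligand of Cd244, had 2.04 and 2.37, and Slamf9 had 3.71 and 3.57. Slamf8 and the adaptor Sh2d1b, named after their values were seen, rose more in the adenine model, with differences of -1.37 and -1.18 (adjusted p = 0.0227 and 0.0361 on the limma fits). The other listed adaptor, Sh2d1a, also named after its values were seen, did not share this. Under adenine it was too low to test and its groups overlapped. Under UUO it was a DEG, at 3.29, which passed the filter through the UUO rats alone. Slamf1, Ly9 and Slamf7 were too low to test in the adenine model, where their highest rats stood at 0.559, 0.415 and 1.90 FPKM, and are named after their values were seen.

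Cytotoxic granule and death ligand genes had higher values in the UUO model. Of 8 tested genes in the adenine model 1 was an upregulated DEG, a share near the 10.7% of all entries, and 5 did not pass the p threshold (median log2 FC 0.66), and of 9 in the UUO model 7 were (median 3.07). A larger rise in the UUO model was called for 6 of the 8 genes tested in both, against 9.44% of symbols. Tnfsf10 (TRAIL), a death ligand that many cells make, had 2.07 and 3.09, Srgn, the core of granule proteoglycan, 1.38 and 1.54, and Serpinb9, an inhibitor of granzyme B, 1.13 and 1.91. Perforin and granzyme genes were named after their values were seen. Prf1 stood at 0.614, 0.716 and 0.200 FPKM in the control rats and 0.473, 0.691 and 0.712 in the adenine rats, and at 0.277, 0.450 and 0.665 in the sham rats and 5.67, 3.53 and 7.41 in the UUO rats. It overlapped under adenine (log2 FC 0.36, limma adjusted p = 0.508) and not under UUO (3.32, limma adjusted p = 0.000273).

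Gzma stood at 0.852, 0.790 and 0.346 FPKM in the control rats and 0.0912, 0.525 and 0.327 in the adenine rats, and at 0.333, 0.329 and 0.378 in the sham rats and 7.13, 3.98 and 5.17 in the UUO rats. Its log2 FC was -0.96 (limma adjusted p = 0.163) and 3.59 (limma adjusted p = 5.14e-05), a difference of 4.55 (SE 0.60, adjusted p = 0.000344 on the limma fits). Gzmk, Gzmm and Ctsw, a protease of cytotoxic lymphocytes, had 0.51, 0.13 and 0.81 in the adenine model, none past the p threshold, and 3.29, 3.07 and 2.85 in the UUO model. Like Nkg7, these genes were no DEGs under adenine and were upregulated DEGs under UUO. Gzmb was an upregulated DEG under UUO and was not tested under adenine. Under quantile normalization Prf1, Gzmk and Gzmm had values under 0 in the adenine model, none past the p threshold.

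NK cell receptors and adaptors were mostly too low to test, with 5 of 18 listed genes tested under adenine and 8 under UUO. Of these 3 and 7 were upregulated DEGs. Klrk1 (NKG2D), an activating receptor, had 1.26 and 3.39, a larger rise in the UUO model by 2.13 (SE 0.38, adjusted p = 0.00204 on the limma fits). Tyrobp, an adaptor that myeloid cells share, had 3.60 and 2.72, and Fcgr3a, an Fc receptor of NK cells and macrophages, 1.59 and 2.30. Ncr3, an activating receptor named after its values were seen, was a DEG in both, at 3.16 and 2.37, and its difference was not called. All control rats were under the minimum FPKM for Ncr3, so in that table it passed the filter through the adenine rats alone. With a pseudocount of 1 its call was lost under adenine (1.38) and under UUO (1.13). The call under UUO was also lost without the first sham rat (1.78), with median-of-ratios scaling (1.87) and with quantile normalization (1.57). Ncr1, a receptor that marks NK cells and was named after its values were seen, stayed between 0.0477 and 0.229 FPKM in control and adenine rats, and stood at 0.0247, 0.0479 and 0.155 in the sham rats and 0.630, 0.482 and 1.75 in the UUO rats.

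T and NK cell transcription factors gave 3 of 9 and 7 of 15 tested genes as upregulated DEGs, with medians of 1.66 and 1.93. Among the highest were Gata3 (-0.15 and 0.0073) and Bcl6 (0.74 and 0.36), which epithelial and other cells also express, and of these values only that of Bcl6 in the adenine model passed the p threshold (limma adjusted p = 0.00866). Under median-of-ratios scaling Bcl6 turned direction in the UUO model, to -0.23, and Gata3 fell in the UUO model by 0.58 (limma adjusted p = 0.0128). T cell cytokines were mostly too low to test, with 5 and 4 of 16 listed genes tested. Ccl5, a chemokine of activated T cells, stood at 5.86, 5.10 and 6.56 FPKM in the control rats and 2.43, 8.72 and 4.70 in the adenine rats, and at 4.04, 4.82 and 2.47 in the sham rats and 17.0, 10.7 and 46.3 in the UUO rats. Its log2 FC was -0.32 (limma adjusted p = 0.548) and 2.46 (limma adjusted p = 0.00542).

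Xcl1, made by NK and CD8 T cells, had a log2 FC of 0.23 (limma adjusted p = 0.497) and 3.06 (limma adjusted p = 0.00103), and Ltb (lymphotoxin beta) 1.30 and 2.24. Il10, an anti-inflammatory cytokine of several leukocytes that was named after its values were seen, was listed at 0 in all control rats and at 2.84, 3.20 and 3.85 FPKM in the adenine rats, and at the lowest value in all sham rats and 0.309, 0.370 and 0.101 in the UUO rats. Ifng, also named after its values were seen, was listed at 0.0669 FPKM in the first control rat and at 0 in the other rats of that table. In the sham and UUO table Ifng was at the lowest value in all sham rats but not in all UUO rats. Its level in the third UUO rat was 9.40 times the mean of the other UUO rats. Ifng was not tested in either model, since it did not reach 0.5 FPKM in 3 rats of either table. Cytokine and homing receptors gave 8 of 15 and 14 of 19 tested genes as upregulated DEGs (medians 2.03 and 2.92). Il2rg, the chain shared by several cytokine receptors, had 3.26 and 2.47, and Lrrc32, which presents latent TGF-beta on regulatory T cells and other cells, 2.59 and 2.76. S1pr1, which guides lymphocytes out of tissue and is high in endothelium, had -0.17 (limma adjusted p = 0.426) and 1.56 (limma adjusted p = 0.000168).

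**Figure D4:**
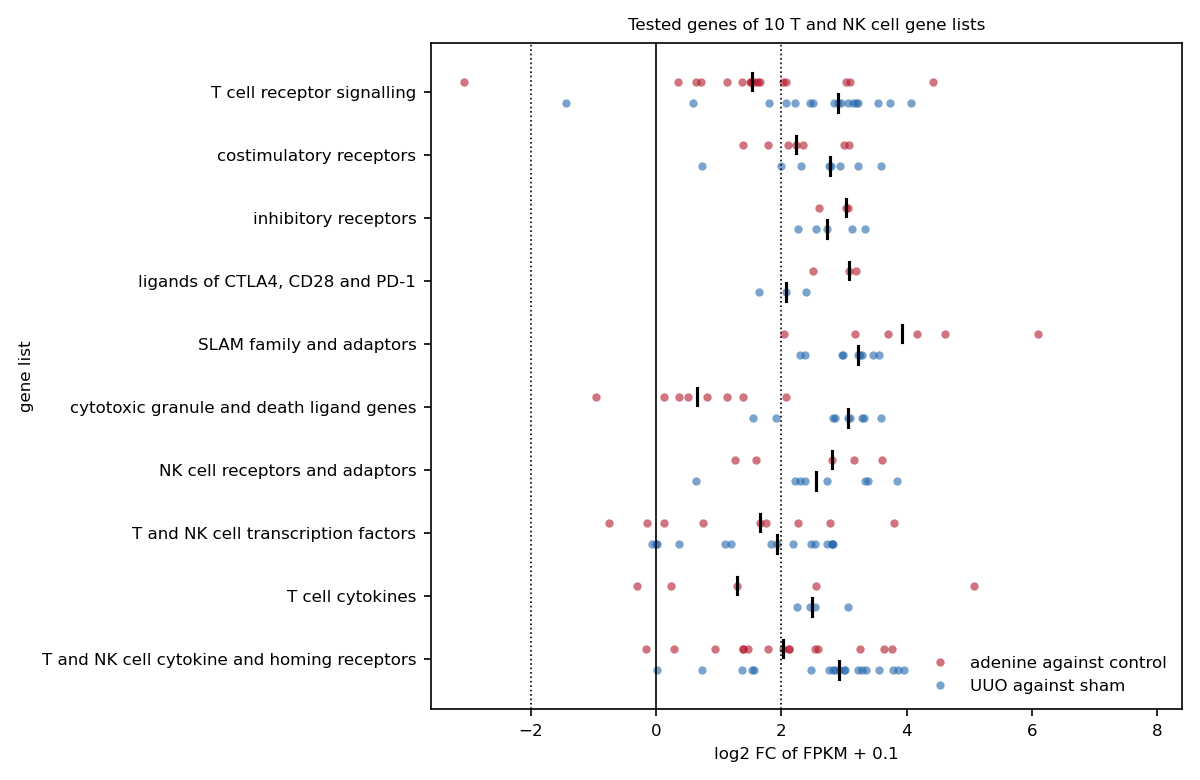
Log2 FC of FPKM + 0.1 (horizontal axis) of the tested genes of 10 T and NK cell gene lists (vertical axis), adenine against control and UUO against sham, one point a gene, with the median of each list as a black bar and dotted lines at 2 and -2. Cytotoxic genes have medians of 0.66 under adenine and 3.07 under UUO, and the SLAM family 3.93 and 3.22.

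The genes whose levels were most like those of the CD3 chains were sought over the 12 rats among 13477 symbols, by the root mean square distance of log2(FPKM + 0.1) after centring each table on its control or sham mean. Lck (0.216), Cxcr6 (0.257), Cd5 (0.277), Zap70 (0.332) and Ptprcap (0.352) were nearest. Further down, the 15 nearest also held genes that are not particular to lymphocytes, such as Slco2b1 (0.366), P2ry12 (0.402), Adgre1 (0.403) and Tlr4 (0.425), named after their values were seen. Lck and Zap70 are kinases of the T cell receptor pathway, Cd5 a T cell surface receptor, Cxcr6 a chemokine receptor of T and NK cells, and Ptprcap a partner of CD45. Among the members the distance was 0.362 for Cd8a, 0.779 for Nkg7, 0.836 for Ctla4, 0.990 for Gzmb, 1.24 for Cd4, 1.40 for Foxp3 and 3.35 for Slamf6. Cxcr6 had a log2 FC of 2.03 and 3.56, Cd5 of 2.03 and 3.22, Zap70 of 1.50 and 3.55, and Ptprcap of 1.61 and 3.36. Zap70 and Ptprcap rose more in the UUO model by 2.04 and 1.74 (adjusted p = 0.0131 and 0.00861 on the limma fits). The points share libraries and tables, and the distance says nothing of shared control.

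Rats within a diseased group also differed, and the members split among themselves. In the second adenine rat Cd3e, Cd3g, Cd3d, Cd8a and Nkg7 were the highest of the group, at 2.11, 1.69, 1.86, 1.77 and 2.15 times the mean of the other 2 rats. In the same rat Slamf6, Cd4 and Foxp3 were the lowest, at 0.322, 0.787 and 0.467 times that mean. It was the highest rat for 5 of 9 tested members and the lowest for 3, where 36.2% of all tested entries were highest and 33.8% lowest in it. Ptprc and Cd68 were also lowest in this rat, at 0.553 and 0.562 times the mean of the others, as were 6 of 6 pan-leukocyte markers, 5 of 11 macrophage markers and 50.1% of all upregulated DEGs. Kidney epithelium markers were highest in it in 5 of 8, with Slc34a1 at 4.44 times the mean of the others, and the part of this in the results was not tested. Of the T cell receptor signalling genes 10 of 17 were highest in it.

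In the UUO group the third rat was the highest for 8 of 10 members, against 44.2% of entries, and for 16 of 17 tested T cell receptor signalling genes. Cd3d, Cd3e, Cd3g, Cd8a and Nkg7 stood at 3.30, 2.57, 2.55, 2.52 and 2.64 times the mean of the other UUO rats, and Slamf6 at 2.14 times. Foxp3 and Gzmb were lowest in this rat, at 0.895 and 0.675 times. Ptprc was 1.78 times the mean of the others, while Cd68, Lyz2 and C1qa were 0.606, 0.668 and 0.560 times, and 6 of 11 macrophage markers were lowest in it, as were 28.9% of all tested entries and 43.8% of upregulated DEGs. Slamf6 thus stood on the side of Ptprc, and away from the CD3 chains, in the second adenine rat, and on the side of both in the third UUO rat. These rats were singled out after their values were seen, with 3 rats a group and no test.

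**Figure D5:**
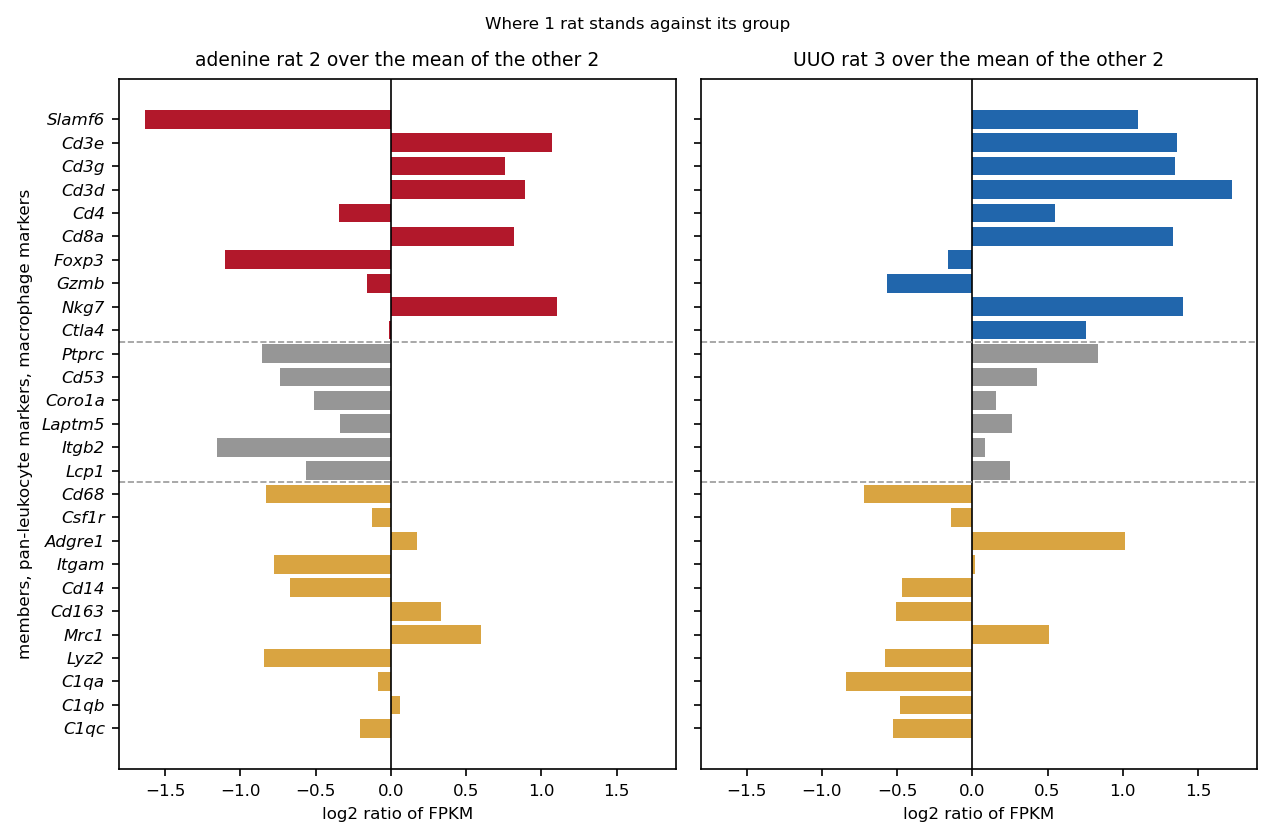
Log2 ratio of FPKM in 1 rat to the mean of the other 2 rats of its group (horizontal axis), the second adenine rat at left and the third UUO rat at right. Bars are the 10 members, then pan-leukocyte markers, then macrophage markers. In the adenine rat the CD3 genes, Cd8a and Nkg7 point right and Slamf6, Foxp3, Cd4 and the pan-leukocyte markers left, and in the UUO rat 8 of the 10 members point right.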

How the data were processed

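Kidney RNA of 12 rats was sequenced as strand-marked poly(A) libraries on a NovaSeq instrument. Per the submitters' processing notes, reads passed through cutadapt 1.9, HISAT2 2.0.4 and StringTie 1.3.4d, and edgeR and DESeq2 are also named. The genome build is not given in the sources used here. The deposited tables hold FPKM made by the authors, 1 table for control and adenine and 1 for sham and UUO, normalized apart, so each was tested alone. Since FPKM are no counts, limma 3.58.1 (R 4.3.3) was fitted with a trend to log2(FPKM + 0.1), over entries with FPKM of at least 0.5 in 3 of 6 samples, with Benjamini-Hochberg adjustment. The difference between models used the summed variances and degrees of freedom of both fits, over symbols listed once. Ratios to the CD3 chains or to Ptprc were first planned as a moderated fit across genes, which failed on simulated data because all ratios share one reference, so each has an unmoderated 95% interval and an exact permutation test instead. On simulated data with changes of 3 on the log2 scale, 183 of 198 changed genes were called in the adenine design, 196 of 200 in the UUO design and 349 of 366 for the difference. Unchanged genes called were 3, 3 and 23. The changed genes had all 3 control or sham rats at 0.5 FPKM or more. These rates therefore do not cover members with lower reference levels or smaller changes. The methods describe 3 rats a group, and p-values measure the spread between the 3 rats of a group. Replicate numbers were taken from the labels. Depth is unknown, so 3 rats a group and FPKM near 0 limit the precision.

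The 10 members, the gene lists and the motifs were chosen with earlier results of these data known. Genes were named by rule: all members, the 3 genes of each list with the highest mean FPKM in adenine and UUO samples, downregulated DEGs of the pathway lists, and the 5 genes nearest to the CD3 chains. A gene so chosen is not reported here. Others are said to be named after their values were seen. Icosl and Il7r matched in neither table. Alternatives were other pseudocounts, scalings and filters, a fit without the trend, a replicate block, and leaving out each rat. Tables were made in Python 3.11.15 (pandas 2.3.3, scipy 1.17.1, numpy 2.4.6).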

Additional observations from a re-analysis of the deposited data

Results flagged for a closer look

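The results below are those whose log2 FC differed between the models (UUO less adenine) with an adjusted p under 0.05 on the limma fits and a size of at least 1. Each gene was tested over all symbols compared.

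Among the members the difference was -5.16 for Slamf6, -1.98 for Foxp3, -1.19 for Cd4, 1.40 for Cd3g, 1.80 for Cd8a and 2.94 for Nkg7. Among genes of T cell receptor signalling and the genes nearest to the CD3 chains it was 2.45 for Cd247, 2.15 for Lat, 2.04 for Zap70, 1.74 for Ptprcap and -1.24 for Lcp2. In the SLAM family it was -2.65 for Cd84, -1.37 for Slamf8 and -1.18 for Sh2d1b.

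Cytotoxic genes had larger rises in the UUO model, with 4.55 for Gzma, 2.96 for Prf1, 2.94 for Gzmm, 2.78 for Gzmk, 2.05 for Ctsw and 1.02 for Tnfsf10. The same held for Klrk1 at 2.13, Xcl1 at 2.83, Ccl5 at 2.77 and S1pr1 at 1.73. Some markers of leukocytes and myeloid cells had larger rises in the adenine model. Among them were 3 of 6 pan-leukocyte and 6 of 11 macrophage markers, against 3.37% of all symbols compared. The difference was -3.81 for Itgb2, -3.58 for Itgam, -2.90 for Lyz2, -2.49 for Cd68, -2.22 for Itgax and -1.56 for Lcp1. The dendritic cell marker Clec9a went the other way, with 1.84. Itgam and Clec9a were named after their values were seen.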

How the results depend on the processing

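Of the values of single genes, 2322 kept their direction and side of the threshold under the alternatives, 126 lost a call, 17 gained one and 22 turned direction. Of the counts of members, 86 stayed within 1.5 times and 11 moved. The cause of these shifts was not tested unless stated.

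With a pseudocount of 1, 2 members were DEGs in the adenine model against 6, and the count without overlap relative to the CD3 chains in the UUO model was 4 against 1 (2 with a pseudocount of 0.01). Relative to Ptprc a pseudocount of 1 gave 9 against 5 in the adenine model and 5 against 1 in the UUO model, where quantile normalization gave 2. Leaving out each rat gave 4 to 6 DEGs in the adenine model, 9 to 9 in the UUO model and 4 to 7 called differences against 6. It gave 4 to 6 and 1 to 4 members without overlap relative to the CD3 chains, and 5 to 7 and 1 to 8 relative to Ptprc, where leaving out the second sham rat gave the 4 and the 8. Ratios had no fit without the trend, with the replicate block or under rescaling, since these do not apply to them.

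Turned directions in the adenine model were those of Gata3 (0.12) and S1pr1 (0.10) with FPKM rescaled to the same sum, and Ccl5 (0.14 without adenine rat 1, range -0.76 to 0.14 over left-out rats). Xcl1 turned to -0.043, -0.34 and -0.0034 (median-of-ratios, quantile, without control rat 1, range to 0.44), Gzmm to -0.14, -0.44 and -0.033 (median-of-ratios, quantile, without adenine rat 3, range to 0.26), Prf1 to -0.19 and -0.090 (quantile, without control rat 3, range to 0.63), and Gzmk to -0.059 and Lat to -0.11 (quantile). In the UUO model Bcl6 turned to -0.23 and -0.31, and Gata3 to -0.58 and -0.67 (median-of-ratios, quantile) and to -0.065, -0.077, -0.0021 and -0.0050 without sham 1, sham 2, UUO 1 or UUO 3, in a range of -0.077 to 0.16. The difference of Ctla4 turned to 0.11 without control rat 3, in a range of -0.76 to 0.11.

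Correlations of same-numbered deviations were -0.077, -0.123 and -0.049 in the adenine table, where each sample matched another number best. They were 0.050, 0.105 and 0.059 in the UUO table, where each sample matched its own number best. With so few rats a group, these correlations cannot decide whether replicate numbers paired the samples. With the replicate block 6 and 9 members were DEGs and 4 differences were called, with Cd3g (adjusted p = 0.0740) and Nkg7 (adjusted p = 0.0509) lost on the limma fits. Upregulated and downregulated DEGs were 1604 and 756 (adenine) and 1980 and 633 (UUO), against 1293 and 971 and 1211 and 973 with median-of-ratios scaling, 1207 and 982 and 1124 and 947 with quantile normalization, and 2282 and 699 and 2626 and 586 with FPKM rescaled to the same sum. Median-of-ratios scaling moved the median log2 FC of all entries from 0.30 and 0.62 to 0.0056 and 0.023.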
